A study of Mus musculus with 16 samples.

Results

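The fetal growth programme genes examined here are 9 genes of imprinted and oncofetal growth control: the growth factor gene Igf2, the Notch-ligand-like gene Dlk1, the mRNA-binding protein genes Igf2bp1, Igf2bp2 and Igf2bp3, the let-7 antagonist gene Lin28b, the chromatin protein gene Hmga2, and the imprinted zinc finger genes Plagl1 and Peg3. They were taken by name, with earlier results of these data known, and all 9 were found among the 25719 genes listed. All 9 also passed the low-count filter that left 15109 genes for testing. Igf2bp1, Igf2bp3 and Hmga2 passed it through their E14 levels alone, since each P25 group held only 3 to 21 counts of them. RNA-seq was carried out on whole mouse trigeminal ganglia, the paired cranial ganglia that hold the cell bodies of the sensory neurons of the face. The 4 groups were P25 KO, P25 WT, E14 KO and E14 WT, with 4 libraries in each. KO animals lacked Nogo-A, the long product of the reticulon gene Rtn4 and an inhibitor of neurite growth, and WT animals were wild type. E14 is embryonic day 14 and P25 is postnatal day 25, and each library was made from 1 ganglion. How Nogo-A was deleted, the strain and the sex of the animals were not given in the sources used here. In the E14 KO and E14 WT groups, 2 of the 4 libraries carried the same number, with the letter R or L behind it, so they may come from 1 embryo, although the design states 4 animals per group. Every p-value below measures the spread between these libraries.

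Igf2 encodes a secreted growth factor that acts through the type 1 IGF receptor and the insulin receptor, and it drives growth of the fetus and placenta. Lin28b protein binds precursors of the let-7 microRNAs and blocks their maturation, and mature let-7 represses mRNAs that carry complementary sites in their 3′ untranslated regions, among them Hmga2, Lin28b and mRNAs of the Igf2bp family. Igf2, Dlk1, Plagl1 and Peg3 are imprinted, which means that the copy from 1 parent is expressed, and in many tissues of the mouse their mRNAs decline together as growth slows after birth.

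The let-7 sequences are shown because let-7 is the known link between Lin28b and several of these genes. The mature let-7 and miR-98 sequences of the 5p arm were read from RefSeq (GRCm38.p6). Of the 11 names, 10 shared the seed, bases 2 to 8. The seed is in capitals, and 2 family members are printed.
mmu-let-7a-5p: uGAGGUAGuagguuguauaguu
mmu-let-7g-5p: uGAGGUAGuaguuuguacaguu
The reverse complement of this seed, CTACCTC, was searched on the sense strand of the longest annotated 3′ untranslated region of each gene (GENCODE M21, GRCm38). Igf2bp1, Lin28b and Hmga2 held 4 matches each, in 6337, 4445 and 3014 bases. Igf2bp2, Igf2bp3 and Peg3 held 1 match each, and Igf2, Dlk1 and Plagl1 held 0. Over all 21045 genes with such a region, 9.02% held at least 1 match. Each gene was set beside the regions of 0.8 to 1.25 times the length of its own, with its own included. At least 4 matches were found in 0.123% of 2440 such regions for Hmga2, 0.295% of 1358 for Lin28b and 0.331% of 605 for Igf2bp1. These shares stand for very few regions. At least 1 match was found in 12.1% of regions as long as that of Igf2bp2, in 13.3% of those as long as that of Igf2bp3 and in 19.3% of those as long as that of Peg3.

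Matches that are followed by an A, the base that lies opposite the first base of the microRNA, are printed because this is the strongest site type in the field's usual grading. Capitals mark the seed match and that A, all sites lie on the minus strand, and sequences run 5′ to 3′ along the mRNA.
Igf2bp1 chr11:95961778-95961799: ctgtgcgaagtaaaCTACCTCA
Igf2bp1 chr11:95959357-95959378: agcagtgctattaaCTACCTCA
Igf2bp1 chr11:95958763-95958784: tataaatggatgaaCTACCTCA
Igf2bp2 chr16:22059473-22059494: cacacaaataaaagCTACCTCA
Igf2bp3 chr6:49086787-49086808: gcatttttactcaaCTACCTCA
Lin28b chr10:45381022-45381043: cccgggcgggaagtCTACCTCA
Hmga2 chr10:120364224-120364245: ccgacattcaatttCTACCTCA
The single Peg3 match was not followed by an A. A match describes letters in an annotated region and does not show binding, and mature microRNAs were not measured in these libraries.

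Library totals lay between 15532373 and 29562379 estimated counts. E14 WT replicate 2 stood apart, with a root mean square deviation from the mean of its stage of 0.880 on the log2 scale, against 0.254 to 0.514 for the other 15 libraries, and 53.7% of the variance of its deviation was accounted for by GC content and transcript length. Some of the results that rest on it are therefore given with and without it. Rtn4, counted over all its transcripts including those that do not encode Nogo-A, had 345 to 384 CPM (counts per 1000000 counts of the scaled library) in P25 KO libraries, against 406 to 542 CPM in P25 WT libraries, and 236 to 405 CPM in E14 KO libraries, against 144 to 521 CPM in E14 WT libraries. A gene total of this kind does not check the genotype labels.

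The clearest pattern in the fetal growth genes was by age. In KO ganglia 6 of the 9 genes were lower at P25 than at E14 and Peg3 was higher, and in WT ganglia 7 were lower and Peg3 was again higher, at an adjusted p under 0.05 in edgeR's quasi-likelihood test with Benjamini-Hochberg adjustment over all 15109 genes. Igf2, Dlk1, Hmga2 and the 3 Igf2bp genes fell in both genotypes, and their P25 and E14 libraries did not overlap. For Hmga2, Igf2bp1 and Igf2bp3, being tested at all already depended on their E14 levels. The other 3 genes departed from the name of the list: Lin28b was called in WT ganglia alone, Plagl1 was not called in either genotype, and Peg3 rose. Among all genes tested, 29.2% were called lower and 30.6% higher in KO ganglia, and 29.8% were called lower and 29.7% higher in WT ganglia. All P25 libraries lay below all E14 libraries for 6 of the 9 genes in each genotype, against 29.3% of all genes in KO ganglia and 24.2% in WT ganglia, and Peg3 in KO ganglia lay above without overlap, as did 30.5% of all genes. The median log2 fold change of the 9 genes was -4.52 in KO ganglia and -4.48 in WT ganglia, beside 0.01 in KO and 3.12e-04 in WT ganglia over all genes tested. Fold changes are P25 over E14 throughout, and in whole tissue fewer cells of a type and less RNA per cell cannot be told apart.

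**Figure D1:**
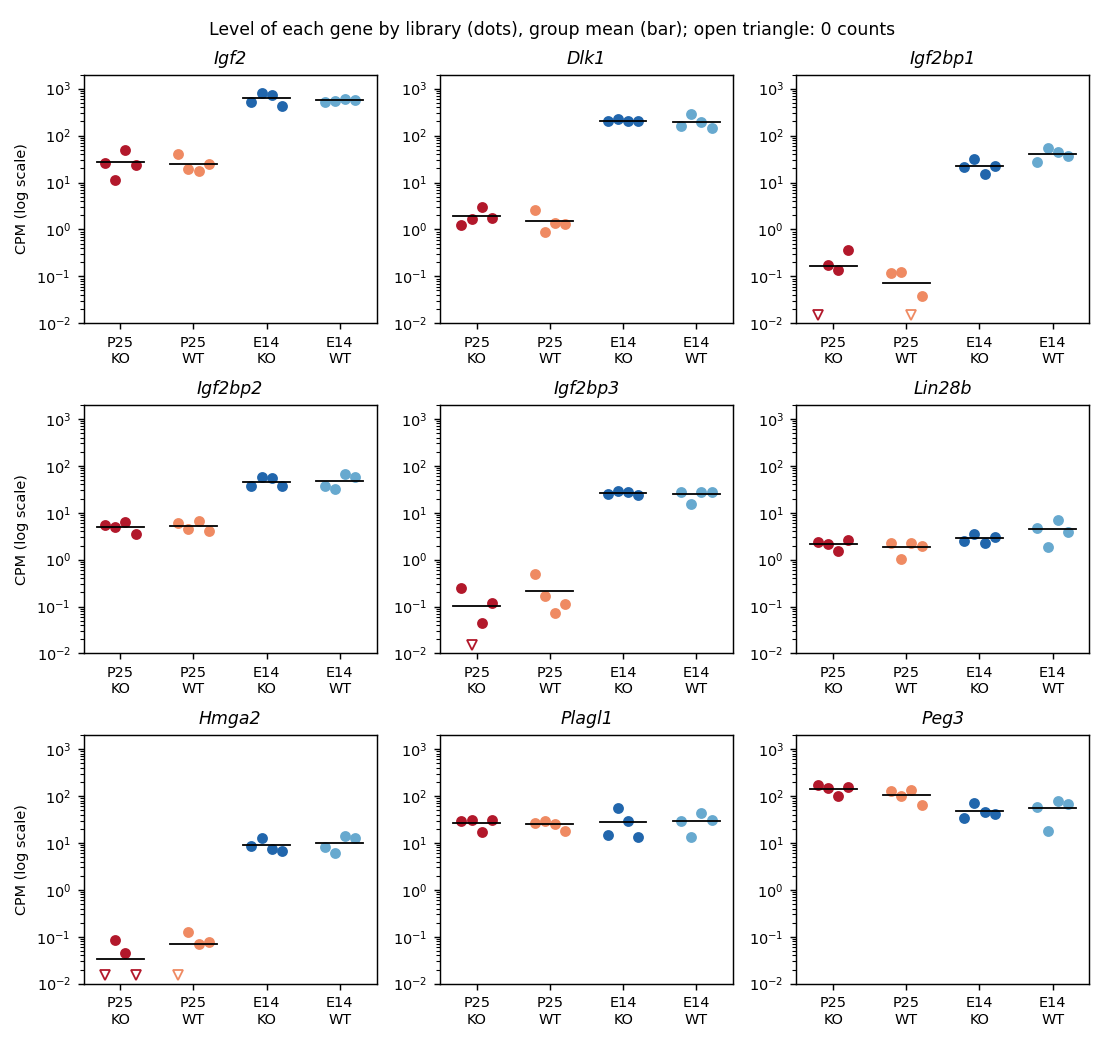
CPM of each of the 9 genes in each of the 16 libraries on a log axis, with P25 KO, P25 WT, E14 KO and E14 WT from left to right, dots for libraries, bars for group means and open triangles for libraries with 0 counts. Igf2, Dlk1, Hmga2 and the Igf2bp genes are lower at P25, the P25 libraries of Plagl1 lie inside the wider E14 spread, and Peg3 is higher at P25.

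Igf2, at chr7:142650766-142666816 on the minus strand of GRCm38, was the most abundant of the 9 mRNAs per kilobase at E14 and remained easily detected at P25. Igf2 had 25.9, 11.2, 48.1 and 23.5 CPM in the 4 P25 KO libraries (replicates 1 to 4 in this order throughout), against 521, 804, 746 and 419.6 CPM in the E14 KO libraries. In WT ganglia Igf2 had 39.7, 19.3, 17.3 and 24.4 CPM at P25, against 528, 541, 608 and 573 CPM at E14. Every P25 library lay far below every E14 library, and P25 KO replicate 3 and P25 WT replicate 1 were the highest at P25. The log2 fold change of Igf2 was -4.52 (SE 0.37, adjusted p = 2.95e-09) in KO ganglia and -4.48 (SE 0.37, adjusted p = 3.23e-09) in WT ganglia, or 22.9-fold and 22.4-fold lower at P25. A larger fall was estimated for 0.702% of all genes in KO ganglia and 0.814% in WT ganglia.

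Dlk1, at chr12:109452823-109463336 on the plus strand, encodes a transmembrane protein related to Notch ligands that is known from fetal tissues and from progenitors of fat and muscle. Dlk1 had 1.24, 1.68, 2.97 and 1.75 CPM in P25 KO libraries, against 199.6, 221, 209 and 200.01 CPM in E14 KO libraries. In WT ganglia Dlk1 had 2.54, 0.885, 1.36 and 1.31 CPM at P25, against 158, 283, 198 and 142 CPM at E14. The 4 E14 KO libraries lay close together, and the E14 WT libraries spread 1.99-fold with replicate 2 on top. Dlk1 fell in both genotypes, with a log2 value of -6.77 (SE 0.33, adjusted p = 1.93e-12) in KO ganglia and -7.00 (SE 0.34, adjusted p = 1.40e-12) in WT ganglia, a fall exceeded by 0.185% and 0.192% of all genes. The same P25 libraries were highest for Dlk1 as for Igf2, namely KO replicate 3 with 2.97 CPM and WT replicate 1 with 2.54 CPM.

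The 3 Igf2bp genes encode mRNA-binding proteins, named for their binding to Igf2 mRNA, that are abundant in embryos, where they affect the stability, transport and translation of their targets. All 3 fell at P25 in both genotypes, but not to the same level. Per kilobase of the longest transcript, Igf2bp2 kept 1.02 ± 0.238 CPM in P25 KO and 1.07 ± 0.247 CPM in P25 WT ganglia. Igf2bp3 kept 0.0237 ± 0.0248 CPM per kilobase in P25 KO and 0.0483 ± 0.0429 in P25 WT ganglia, and Igf2bp1 kept 0.0199 ± 0.0176 in P25 KO and 0.00853 ± 0.00743 in P25 WT ganglia (SD, n = 4 each). Igf2bp1 and Igf2bp3 were thus at or near 0 at P25, and Igf2bp2 was not.

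Igf2bp1, at chr11:95957163-96005940 on the minus strand, had 0, 0.172, 0.137 and 0.357 CPM in P25 KO libraries, against 21.04, 32.01, 15.5 and 22.001 CPM in E14 KO libraries. In WT ganglia Igf2bp1 had 0.121, 0.126, 0 and 0.0386 CPM at P25, against 27.9, 55.01, 43.8 and 37.5 CPM at E14. Each P25 group had 1 library without a count for this gene. The P25 KO libraries held 16 Igf2bp1 counts in all and the P25 WT libraries 7, so the size of the fall rests on few counts. The counting ratio of E14 over P25, scaled for library size, was 137 (exact 95% interval 84.1 to 240.2) in KO ganglia and 583 (exact 95% interval 283 to 1451) in WT ganglia, where intervals cover counting error only. The fitted log2 fold change of Igf2bp1 was -7.02 (SE 0.47, adjusted p = 1.55e-10) in KO ganglia and -9.11 (SE 0.53, adjusted p = 1.77e-11) in WT ganglia. Without P25 KO replicate 4, which held the highest P25 level, the KO value was -7.70.

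Igf2bp3, at chr6:49085223-49214957 on the minus strand, showed the same near-loss. Igf2bp3 had 0.247, 0, 0.0456 and 0.119 CPM in P25 KO libraries, against 24.9, 28.4, 27.3 and 23.8 CPM in E14 KO libraries. In WT ganglia Igf2bp3 had 0.483, 0.169, 0.0718 and 0.116 CPM at P25, against 27.7, 15.7, 28.1 and 27.7 CPM at E14. In all, 10 counts were found in P25 KO libraries and 21 in P25 WT libraries, and replicate 1 was the highest P25 library in both genotypes. The counting ratio of E14 over P25 was 247 (exact 95% interval 134 to 517) in KO ganglia and 123 (exact 95% interval 80.4 to 199) in WT ganglia. The fitted log2 fold change of Igf2bp3 was -7.88 (SE 0.48, adjusted p = 3.45e-11) in KO ganglia and -6.87 (SE 0.44, adjusted p = 6.91e-11) in WT ganglia. Without P25 KO replicate 1 the KO value was -8.71, and without P25 WT replicate 1 the WT value was -7.66.

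Igf2bp2, at chr16:22059009-22163299 on the minus strand, is the member of its family known for expression in adult tissues as well as in embryos. Igf2bp2 had 5.48, 5.04, 6.25 and 3.45 CPM in P25 KO libraries, against 36.7, 57.3, 53.7 and 36.3 CPM in E14 KO libraries. In WT ganglia Igf2bp2 had 5.96, 4.51, 6.64 and 4.02 CPM at P25, against 37.9, 31.5, 66.6 and 57.4 CPM at E14. The stages did not overlap, and the P25 levels of the genotypes covered nearly one range. Its log2 fold change was -3.19 (SE 0.27, adjusted p = 5.67e-09) in KO ganglia and -3.19 (SE 0.27, adjusted p = 5.26e-09) in WT ganglia, or 9.10-fold and 9.14-fold lower at P25.

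That Igf2bp2 fell less than its relatives was tested within libraries, where depth cancels, as the log2 ratio of the counts plus 0.5 of a pair of genes. These pairs were chosen after their values were seen, and 8 such tests were made (4 pairs in 2 genotypes). The ratio of Igf2bp2 to Igf2bp1 averaged 5.32 ± 2.03 at P25, against 1.04 ± 0.50 at E14, in KO ganglia (SD, n = 4 each). In WT ganglia this ratio averaged 6.25 ± 1.60 at P25, against 0.21 ± 0.68 at E14. Igf2bp2 thus gained on Igf2bp1 in every P25 library relative to every E14 library of its genotype. The ratio of Igf2bp2 to Igf2bp3 was higher at P25 by 5.06 in KO ganglia and by 3.88 in WT ganglia. Each of the 8 tests, the exact 2-sided permutation test of 4 against 4 libraries, gave p = 0.0286, the smallest value that this design allows, and 0.0286 after Benjamini-Hochberg adjustment over the 8. Any pair whose groups do not overlap gives this value, and the adjustment does not cover the pairs that were not chosen. Since the pairs were picked on their values, these p-values restate the lack of overlap and are no independent support. With the counts of the same-numbered E14 libraries summed first, an alternative added after the data were seen that leaves 3 samples at E14 against 4 at P25, the direction of all 8 differences was kept and no pair of groups overlapped. Each exact 2-sided permutation test then gave p = 0.0571, the smallest value that 3 against 4 samples allow, so no test could pass 0.05. The sizes of the ratios to Igf2bp1 and Igf2bp3 at P25 depend on the 0.5 added, because these genes had 0 counts in some libraries.

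**Figure D2:**
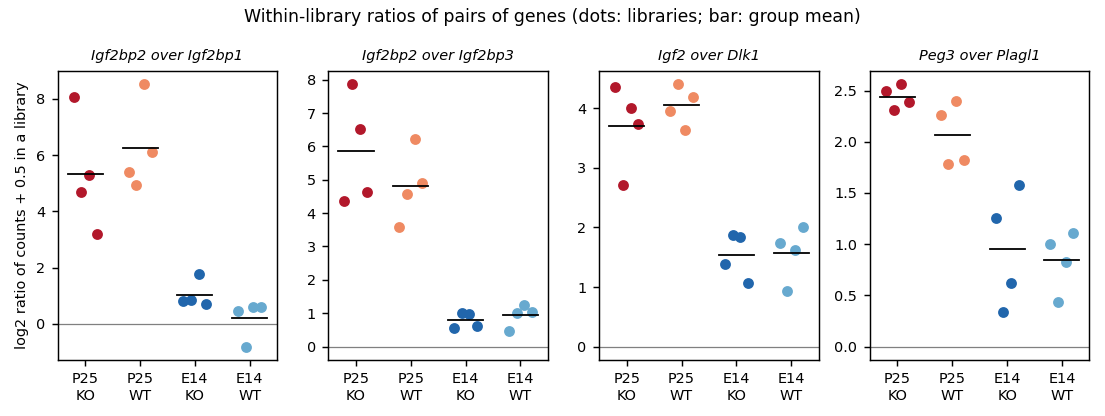
Log2 ratio of the counts plus 0.5 of 4 pairs of genes within each library, by group, with dots for libraries and bars for group means. In every panel the P25 libraries of a genotype lie above its E14 libraries, as for Peg3 over Plagl1, with means of 2.44 in P25 KO, 2.07 in P25 WT, 0.95 in E14 KO and 0.84 in E14 WT libraries.

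Lin28b, at chr10:45376620-45486395 on the minus strand, encodes the RNA-binding protein that holds back let-7 maturation. Its level was low at both stages, and the stages overlapped. Lin28b had 2.39, 2.20, 1.55 and 2.58 CPM in P25 KO libraries, against 2.53, 3.59, 2.21 and 3.10 CPM in E14 KO libraries. In WT ganglia Lin28b had 2.29, 1.05, 2.22 and 1.93 CPM at P25, against 4.77, 1.83, 7.05 and 3.90 CPM at E14. E14 WT replicate 3 was the highest library of all, and E14 WT replicate 2 lay within the P25 range. The log2 fold change of Lin28b was -0.39 (SE 0.35, adjusted p = 0.345) in KO ganglia, which is not called, and -1.22 (SE 0.35, adjusted p = 0.00520) in WT ganglia, which is called. Without E14 WT replicate 2 the WT value was -1.47 (adjusted p = 0.000263), and without E14 WT replicate 3, the highest library, it was -0.85 (adjusted p = 0.0467). The difference between the 2 stage effects was 0.83 (SE 0.49, adjusted p = 0.993), so the stage effect on Lin28b was not shown to differ between genotypes. Hmga2 and Igf2bp1, which like Lin28b carry 4 let-7 seed matches, were nearly lost at P25. Igf2 and Dlk1, which carry 0, fell as well, and Peg3, which carries 1, rose. The part of let-7 in these changes was not tested.

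Hmga2, at chr10:120361275-120476469 on the minus strand, encodes an architectural chromatin protein of proliferating embryonic cells and stem cells. Hmga2 had 0, 0.0862, 0.0456 and 0 CPM in P25 KO libraries, against 8.66, 12.9, 7.34 and 6.57 CPM in E14 KO libraries. In WT ganglia Hmga2 had 0, 0.126, 0.0718 and 0.0773 CPM at P25, against 8.25, 6.04, 13.7 and 12.8 CPM at E14. Only 3 Hmga2 counts were found in all P25 KO libraries and 7 in all P25 WT libraries, and 2 P25 KO libraries and 1 P25 WT library had none. The counting ratio of E14 over P25 was 283 (exact 95% interval 96.6 to 1378) in KO ganglia and 151 (exact 95% interval 72.9 to 377) in WT ganglia. Hmga2 passed the test in both genotypes (adjusted p = 4.75e-10 in KO and 4.48e-10 in WT ganglia), with a fitted log2 fold change of -7.89 in KO ganglia that rests on those 3 counts and was -8.78 without P25 KO replicate 2. In WT ganglia the fitted value was -7.11 (SE 0.51).

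Plagl1, at chr10:13060504-13131694 on the plus strand, encodes an imprinted zinc finger transcription factor that regulates a network of imprinted genes, Igf2 among them, in the mouse. Its level did not pass the test for a change with age in either genotype. Plagl1 had 29.6, 30.3, 16.98 and 30.4 CPM in P25 KO libraries, against 14.4, 56.1, 29.01 and 13.5 CPM in E14 KO libraries. In WT ganglia Plagl1 had 27.1, 29.2, 24.9 and 18.3 CPM at P25, against 28.7, 13.1, 43.3 and 30.8 CPM at E14. The P25 levels lay inside the E14 range, and the E14 libraries spread 4.17-fold in KO and 3.30-fold in WT ganglia. The log2 fold change of Plagl1 was -0.08 (SE 0.38, adjusted p = 0.875) in KO ganglia and -0.22 (SE 0.38, adjusted p = 0.638) in WT ganglia. The approximate 95% intervals, -0.82 to 0.67 in KO and -0.96 to 0.52 in WT ganglia, do not reach the falls of Igf2, Dlk1 or the Igf2bp genes.

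Peg3, at chr7:6703892-6730431 on the minus strand, encodes a large imprinted zinc finger protein that is known in neurons and has been linked to fetal growth in the mouse. It was the only one of the 9 that rose with age. Peg3 had 167, 149.9, 101 and 159 CPM in P25 KO libraries, against 34.5, 71.1, 44.6 and 40.3 CPM in E14 KO libraries. In WT ganglia Peg3 had 131, 101, 131 and 64.4 CPM at P25, against 57.5, 17.7, 76.5 and 66.4 CPM at E14. The stages did not overlap in KO ganglia, and in WT ganglia P25 replicate 4 lay below 2 E14 libraries. Peg3 rose by 1.60 (SE 0.34, adjusted p = 4.32e-04) on the log2 scale in KO ganglia, or 3.03-fold, and 0.97 (SE 0.33, adjusted p = 0.0172) in WT ganglia, or 1.96-fold. The WT call was close to the threshold: it was lost with scaling by library totals alone (0.83, adjusted p = 0.0621) and without P25 WT replicate 1 (0.86, adjusted p = 0.0507). Without E14 WT replicate 2, the lowest Peg3 library, the WT value was 0.68 (adjusted p = 0.0257). Within libraries the log2 ratio of Peg3 to Plagl1 was higher at P25 by 1.49 in KO ganglia and by 1.22 in WT ganglia. The exact permutation p was 0.0286 each, from the 8 tests above, for a pair chosen after its values were seen.

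**Figure D3:**
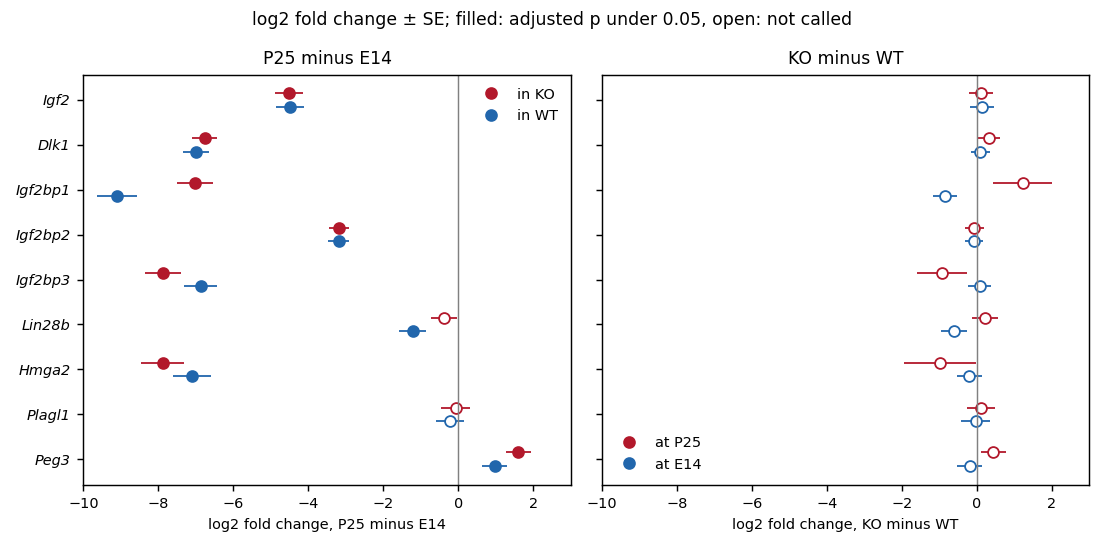
Log2 fold change with its SE for each of the 9 genes, P25 minus E14 on the left (KO in red, WT in blue) and KO minus WT on the right (P25 in red, E14 in blue), with filled symbols for an adjusted p under 0.05. The stage values run from -9.11 for Igf2bp1 in WT ganglia to 1.60 for Peg3 in KO ganglia, and every genotype symbol is open.

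Igf2 and Dlk1, the secreted and the membrane-bound growth regulator, also fell by unequal amounts. The log2 ratio of Igf2 to Dlk1 averaged 3.71 ± 0.71 in P25 KO libraries, against 1.54 ± 0.38 in E14 KO libraries (SD, n = 4 each). In WT ganglia the ratio averaged 4.05 ± 0.33 at P25, against 1.58 ± 0.46 at E14 (SD, n = 4 each). The exact permutation p was 0.0286 in each genotype, the smallest possible, for a pair chosen after its values were seen. With the same-numbered E14 libraries summed, the exact permutation p was 0.0571 in each genotype, again the smallest possible. More Igf2 than Dlk1 mRNA therefore remained at P25, relative to E14, in all 8 P25 libraries.

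Levels of different genes were compared per kilobase of the longest annotated transcript. At P25 Peg3 stood first, with 16.6 ± 3.44 CPM per kilobase in KO ganglia and 12.3 ± 3.63 in WT ganglia (SD, n = 4 each). Igf2 followed with 5.76 ± 3.26 CPM per kilobase in P25 KO and 5.33 ± 2.15 in P25 WT ganglia. Plagl1 came next with 5.10 ± 1.25 CPM per kilobase in P25 KO and 4.73 ± 0.899 in P25 WT ganglia, and the ranges of Igf2 and Plagl1 overlapped. Igf2bp2 came after these at P25, Dlk1 and Lin28b followed with overlapping ranges, and Igf2bp1, Igf2bp3 and Hmga2 were last. At E14 Igf2 stood first with 132 ± 38.6 CPM per kilobase in KO and 119 ± 7.53 in WT ganglia. Dlk1 was second at E14 with 44.5 ± 2.11 CPM per kilobase in KO and 41.97 ± 13.5 in WT ganglia, and its range did not meet that of Igf2 or of Igf2bp2, the third. After these came Igf2bp3 and Peg3, which stood in this order in KO and in the opposite one in WT ganglia, and then Plagl1, Igf2bp1, Hmga2 and Lin28b. The order depended on the length used at both ages. Per kilobase of the mean transcript length, Plagl1 with 25.4 ± 4.82 stood above Peg3 with 24.4 ± 7.22 in WT ganglia, and Peg3 with 32.96 ± 6.83 above Plagl1 with 27.4 ± 6.70 in KO ganglia. At E14 the same length placed Plagl1, with 28.8 ± 20.3 in KO and 29.5 ± 12.6 in WT ganglia, above Igf2bp2, with 23.3 ± 5.59 in KO and 24.5 ± 8.29 in WT ganglia, with overlapping ranges, and Igf2 and Dlk1 stayed in front.

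Between KO and WT ganglia none of the 9 genes passed the test at either age. At P25, 0.0463% of all genes tested were called between KO and WT ganglia (7 of 15109), and 282 had an unadjusted p under 0.05. At E14, 0.0199% were called (3 of 15109), and 735 had an unadjusted p under 0.05. DESeq2 called 17 genes at P25 and 6 at E14, none of the 9 among them at either age. For none of the 9 genes did the KO and WT libraries separate at either age, where 3.32% of all genes did so at P25 and 1.63% at E14. An unadjusted p under 0.05 was found for 0 of the 9 at P25 and for 1, Igf2bp1, at E14.

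Igf2bp1 had the smallest unadjusted p of the 9 genes at E14. It averaged 22.6 ± 6.87 CPM in E14 KO libraries, against 41.03 ± 11.4 CPM in E14 WT libraries (SD, n = 4 each), and the groups overlapped. Its log2 fold change was -0.86 (SE 0.32, approximate 95% interval -1.48 to -0.24), with an unadjusted edgeR p of 0.0136 and an adjusted p of 0.942. E14 WT replicate 2 held the highest Igf2bp1 level, and without it the value was -0.68 (adjusted p = 0.689). At P25 Igf2bp1 averaged 0.167 ± 0.147 CPM in KO libraries, against 0.0715 ± 0.0623 CPM in WT libraries, with a log2 fold change of 1.23 (SE 0.79, interval -0.32 to 2.77) that rests on 16 against 7 counts and was 0.52 without P25 KO replicate 4.

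Lin28b averaged 2.86 ± 0.611 CPM in E14 KO libraries, against 4.39 ± 2.16 CPM in E14 WT libraries (SD, n = 4 each). The KO libraries lay within the WT range, and the log2 fold change was -0.61 (SE 0.35, adjusted p = 0.942), or -0.86 (adjusted p = 0.583) without E14 WT replicate 2 and -0.27 (adjusted p = 0.905) without E14 WT replicate 3. At P25 Lin28b averaged 2.18 ± 0.446 CPM in KO libraries, against 1.88 ± 0.571 CPM in WT libraries, a log2 fold change of 0.21 with an interval of -0.47 to 0.90.

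Peg3 averaged 144 ± 29.9 CPM in P25 KO libraries, against 107 ± 31.6 CPM in P25 WT libraries, with a log2 fold change of 0.43 (SE 0.33, interval -0.21 to 1.08). At E14 Peg3 averaged 47.6 ± 16.2 CPM in KO libraries, against 54.6 ± 25.7 CPM in WT libraries (SD, n = 4 each), with a log2 fold change of -0.20 and an interval of -0.85 to 0.46. Neither difference passed the test.

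Igf2 averaged 27.2 ± 15.4 CPM in P25 KO libraries, against 25.2 ± 10.1 CPM in P25 WT libraries, and 623 ± 182 CPM in E14 KO libraries, against 563 ± 35.6 CPM in E14 WT libraries. The log2 fold changes of Igf2 between genotypes were 0.11 at P25, with an interval of -0.53 to 0.75, and 0.15 at E14, with an interval of -0.48 to 0.77. For Dlk1 they were 0.32 (-0.29 to 0.92) at P25 and 0.09 (-0.41 to 0.58) at E14. For Igf2bp2 they were -0.07 (-0.58 to 0.45) at P25 and -0.07 (-0.56 to 0.41) at E14. Plagl1 had 0.11 (-0.63 to 0.85) at P25 and -0.03 (-0.78 to 0.71) at E14. With all 16 libraries the intervals of Igf2, Dlk1, Igf2bp2 and Plagl1 lay within a 2-fold difference in either direction at both ages. Leaving out 1 library moved the estimate of Dlk1 at P25 to as much as 0.67 and that of Plagl1 at E14 to as low as -0.58. At E14 Igf2bp3 had 0.07 (-0.52 to 0.66) and Hmga2 had -0.20 (-0.85 to 0.45). Without E14 WT replicate 2 the E14 values were 0.13 for Igf2, 0.32 for Dlk1 and -0.23 for Igf2bp2. Plagl1 then had -0.27, Igf2bp3 -0.09 and Hmga2 -0.38 at E14, and none of these passed the test. At P25 Igf2bp3 and Hmga2 held too few counts for a useful value: 10 counts in KO against 21 in WT libraries for Igf2bp3, and 3 in KO against 7 in WT libraries for Hmga2.

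Whether the change with age differed between genotypes was tested by the stage-by-genotype term. In edgeR's quasi-likelihood test none of the 9 genes was called, nor was any of the 15109 genes tested (0%), of which 647 had an unadjusted p under 0.05. DESeq2 called 8 genes in this comparison, none of them among the 9. The largest value belonged to Igf2bp1, the only one of the 9 with an unadjusted p under 0.05, whose log2 fold change with age was -7.02 in KO and -9.11 in WT ganglia, a difference of 2.08 (SE 0.85, unadjusted p = 0.0243 and adjusted p = 0.993 in edgeR) that rests on the few P25 counts given above and was 1.35 without P25 KO replicate 4. For Peg3 the difference was 0.63 (SE 0.47, adjusted p = 0.993), and without E14 WT replicate 2 it was 0.92 (adjusted p = 0.448). For Lin28b the value without that library was 1.08 (adjusted p = 0.466), and without E14 WT replicate 3 it was 0.49. The approximate 95% interval of the difference was -0.93 to 0.86 for Igf2, -0.55 to 1.01 for Dlk1 and -0.71 to 0.72 for Igf2bp2.

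Within E14 several of the genes varied together between libraries. Plagl1, Peg3, Lin28b, Hmga2 and Igf2bp2 were all above the mean of the 8 E14 libraries in E14 KO replicate 2 and E14 WT replicate 3. All of them were below it in E14 WT replicate 2, E14 KO replicate 1 and E14 KO replicate 4. Plagl1 deviated by 1.16 in E14 KO replicate 2 and by 0.78 in E14 WT replicate 3 on the log2 scale, but by -0.93 in E14 WT replicate 2. Peg3 deviated by 0.60, 0.71 and -1.39 in these 3 libraries. Lin28b deviated by 0.11, 1.06 and -0.83 in them. Igf2bp1 and Dlk1 went the other way in E14 WT replicate 2, where both had their highest deviation of the stage, 0.90 for Igf2bp1 and 0.52 for Dlk1. In E14 KO replicate 2 and E14 WT replicate 3 both lay above the mean like the other genes. Igf2bp1 deviated there by 0.12 and 0.57, and Dlk1 by 0.16 and 0.0036. In E14 WT replicate 4 Igf2bp1 lay above the mean (0.34) and Dlk1 below it (-0.48). E14 WT replicates 2 and 4 carry the same number, yet Peg3, Plagl1, Lin28b, Hmga2 and Igf2bp2 lay below the mean in replicate 2 and above it in replicate 4. GC content and transcript length accounted for 53.7% of the variance of the deviation over all genes in E14 WT replicate 2, for 33.4% in E14 WT replicate 3, for 31.5% in E14 WT replicate 4, for 29.4% in E14 KO replicate 2 and for 4.81% in E14 KO replicate 1. With an offset for GC content and length in the fit, added after the data were seen, the WT stage value was 1.13 (adjusted p = 6.49e-05) for Peg3, -0.14 (adjusted p = 0.692) for Plagl1 and -1.04 (adjusted p = 0.00221) for Lin28b.

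**Figure D4:**
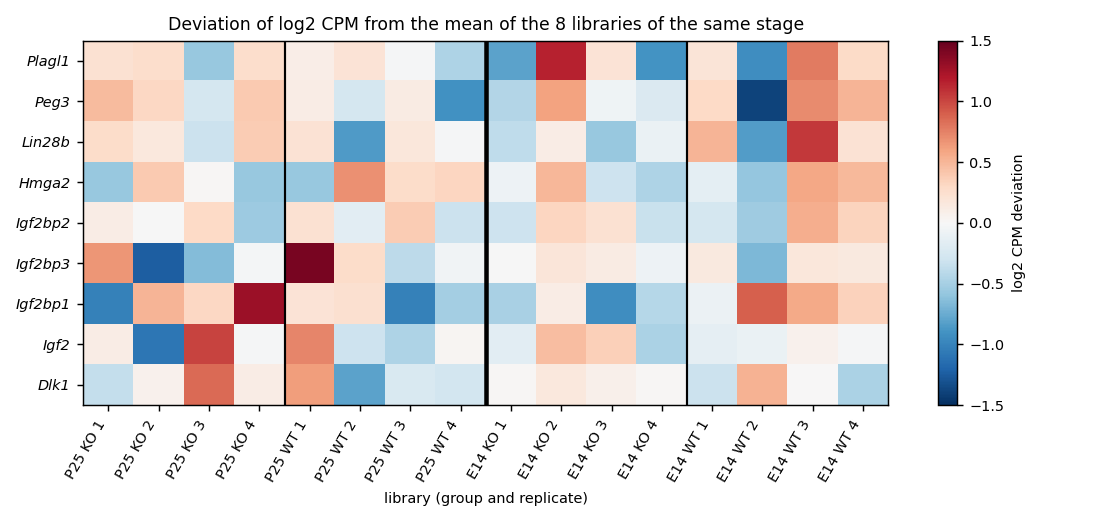
Deviation of log2 CPM of each gene (rows) in each library (columns, P25 KO, P25 WT, E14 KO and E14 WT from left to right) from the mean of the 8 libraries of the same stage, in red above and in blue below it. In E14 WT replicate 2, Peg3, Plagl1, Lin28b, Hmga2, Igf2bp2 and Igf2bp3 are below the mean, with Peg3 at -1.39, and Igf2bp1 and Dlk1 are above it.

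At P25 Igf2 varied 4.30-fold among KO libraries and 2.30-fold among WT libraries. P25 KO replicate 3 held the highest Igf2 and Dlk1 levels of the 8 P25 libraries and the lowest Plagl1 level. In the same library the summed level of the 8 Schwann cell markers was 44174 CPM, against 21875 to 33235 CPM in the other 7 P25 libraries, and the sums of the satellite glia, macrophage, endothelial, cell cycle, erythroid and skeletal muscle lists were also the highest of the 8 P25 libraries there. The satellite glia sum was 8274 CPM, against at most 8119.97 CPM in the others, and the cell cycle sum was 60.6 CPM, against at most 52.9 CPM. The part of these lists in the Igf2, Dlk1 and Plagl1 levels was not tested. The sum of the 10 mesenchyme and fibroblast markers in that library, 2044 CPM, lay within the range of the others.

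Markers of several cell types also moved with age, and their part in the changes of the 9 genes was not tested. Of the 8 Schwann cell markers, 8 rose in each genotype, and their sum was 21875 to 44174 CPM in P25 KO and 28146 to 33235 CPM in P25 WT libraries, against 464 to 562 CPM in E14 KO and 432 to 605 CPM in E14 WT libraries. Of the 8 cell cycle genes, 7 fell in each genotype, and their sum was 45.7 to 60.6 CPM in P25 KO and 42.7 to 52.9 CPM in P25 WT libraries, against 147 to 225 CPM in E14 KO and 149.7 to 208 CPM in E14 WT libraries. All 7 erythroid genes fell in each genotype, with a sum of 87.8 to 129 CPM in P25 KO and 53.1 to 122 CPM in P25 WT libraries, against 924 to 1527 CPM in E14 KO and 806 to 1466 CPM in E14 WT libraries. Sensory neuron markers, those of the defining cells of the labelled tissue, summed to 11938 to 12879.6 CPM in P25 KO and 11248 to 14584 CPM in P25 WT libraries, against 13260.05 to 16724 CPM in E14 KO and 12654 to 18363 CPM in E14 WT libraries. The sum of the 10 mesenchyme and fibroblast markers, cells in which Igf2 and Dlk1 are known to be expressed, was 1763 to 2180.2 CPM in P25 KO and 1741 to 2155 CPM in P25 WT libraries, against 881 to 1312 CPM in E14 KO and 1143 to 1634 CPM in E14 WT libraries. Of the 10 mesenchymal markers 5 rose and 2 fell in KO ganglia, and 3 rose and 3 fell in WT ganglia. Leptomeningeal and choroid plexus markers, of which 2 rose and 5 fell in each genotype, summed to 15.0001 to 34.5 CPM in P25 KO and 17.9 to 34.9 CPM in P25 WT libraries, against 146 to 252 CPM in E14 KO and 139.9 to 198 CPM in E14 WT libraries. Most of that lower sum came from Crabp2, which averaged 2.10 CPM in P25 KO and 2.35 CPM in P25 WT libraries. At E14 Crabp2 averaged 176 CPM in KO and 136 CPM in WT libraries. Cartilage and bone markers summed to 20.5 to 27.3 CPM in P25 KO and 21.6 to 29.3 CPM in P25 WT libraries, against 196 to 284 CPM in E14 KO and 185 to 372 CPM in E14 WT libraries. Of these markers 2 rose and 2 fell in KO ganglia, and 3 rose and 2 fell in WT ganglia, and the cartilage gene Matn1 was at 0 in P25 KO, E14 KO and E14 WT libraries. The lower sum was mostly that of Col2a1, which averaged 9.11 CPM in P25 KO and 10.01 CPM in P25 WT libraries, against 232 CPM in E14 KO and 249 CPM in E14 WT libraries. Of 7 satellite glia markers 5 rose in each genotype, of 7 macrophage markers 7 rose in KO and 6 in WT ganglia, and of 7 endothelial markers 4 fell in KO and 5 in WT ganglia. Pituitary markers summed to 0.714 to 3.58 CPM in P25 KO and 0.431 to 1.43 CPM in P25 WT libraries, against 0.420 to 3.38 CPM in E14 KO and 0.366 to 0.779 CPM in E14 WT libraries.

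The rest of the IGF system did not follow Igf2 as one group. Of 20 listed genes 18 were tested, and 6 rose and 10 fell in each genotype, with a median log2 fold change of -0.76 in KO and -0.96 in WT ganglia. Among all genes tested, 30.6% rose and 29.2% fell in KO ganglia, and 29.7% rose and 29.8% fell in WT ganglia. Igfbp6, a binding protein with a preference for IGF2, averaged 49.005 ± 13.1 CPM in P25 WT libraries, against 0.918 ± 0.469 CPM in E14 WT libraries, and rose by 5.69 on the log2 scale in WT ganglia. The secreted protease gene Htra1 rose by 5.36 and Pappa, whose product cleaves IGF-binding proteins, by 3.11. Among the genes that fell, Pappa2, a related protease gene, had a log2 fold change of -5.47, and the binding protein genes Igfbp5 and Igfbp2 had -3.22 and -3.11. Igfbp5 averaged 85.2 ± 18.1 CPM in P25 WT libraries, against 796 ± 226 CPM in E14 WT libraries (SD, n = 4 each). The receptor genes, named here after their values were seen, fell less than the ligand gene Igf2 in WT ganglia: -0.92 (adjusted p = 0.00166) for Igf1r, -1.36 (adjusted p = 4.60e-05) for Igf2r, which clears IGF2 from the cell surface, and -1.18 (adjusted p = 6.96e-04) for Insr. The other ligand gene, Igf1, had -1.68 (adjusted p = 3.92e-04).

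Other imprinted genes moved in both directions. Of 44 listed genes 38 were found in the files and 34 were tested, 9 rose in each genotype, 14 fell in KO ganglia and 13 fell in WT ganglia, with a median log2 fold change of -0.22 in KO and -0.32 in WT ganglia. Over all genes tested 30.6% rose and 29.2% fell in KO ganglia, and 29.7% rose and 29.8% fell in WT ganglia. Nap1l5 rose by 3.78, the potassium channel gene Kcnk9 by 2.75 and Zrsr1 by 1.59 on the log2 scale in WT ganglia. Magel2 fell to 0.0291 ± 0.0382 CPM in P25 WT libraries, against 12.7 ± 5.79 CPM in E14 WT libraries. Dio3, which encodes the enzyme that inactivates thyroid hormone and lies in the same imprinted region as Dlk1, had a log2 fold change of -7.46, and the neuronatin gene Nnat had -5.56. Of the imprinted neighbours of Peg3, named after their values were seen, Zim1 had 0.77 (adjusted p = 0.160) and did not pass the test, and Usp29 had -1.40 (adjusted p = 9.44e-05), opposite in sign to Peg3. No listed gene was called between genotypes or in the stage-by-genotype term.

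Genes of the let-7 pathway and known let-7 targets were mostly lower at P25, and the part of let-7 in this was not tested. All 33 were tested. Of these, 3 rose in each genotype, 20 fell in KO ganglia and 23 fell in WT ganglia, with a median of -1.17 in KO and -1.18 in WT ganglia. For comparison, 29.2% of all genes tested fell in KO and 29.8% in WT ganglia, and 30.6% rose in KO and 29.7% in WT ganglia. Among the targets that fell in WT ganglia were the phosphatase gene Dusp9 (-3.90) and the transcription factor gene Mycn (-3.53). The argonaute gene Ago3 (0.91), the cyclin gene Ccnd1 (0.70) and E2f6 (0.38) rose in WT ganglia. Lin28a, the paralogue of Lin28b, had -0.56 (adjusted p = 0.502) in KO and -2.10 (adjusted p = 0.00467) in WT ganglia, so it was called in WT ganglia alone, like Lin28b, although its stage-by-genotype term was not called (1.54, adjusted p = 0.993).

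Paralogues of the 9 genes were 8, of which 6 were tested; Igf1, Lin28a, Hmga1 and Plagl2 are also in the lists above. In KO ganglia 3 fell and in WT ganglia 5 fell, and none rose. The shares of all genes tested that fell were 29.2% in KO and 29.8% in WT ganglia, and 30.6% and 29.7% rose. Dlk2, the paralogue of Dlk1, was nearly lost at P25, with 0.0197 ± 0.0228 CPM in P25 WT libraries, against 5.05 ± 1.91 CPM in E14 WT libraries (log2 fold change -7.64). Plag1, the paralogue of Plagl1, had -1.78 (adjusted p = 3.86e-04) in WT ganglia, where Plagl1 was not called. Hmga1 had -0.18 (adjusted p = 0.401) in WT ganglia and did not pass the test, where Hmga2 was nearly lost.

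**Figure D5:**
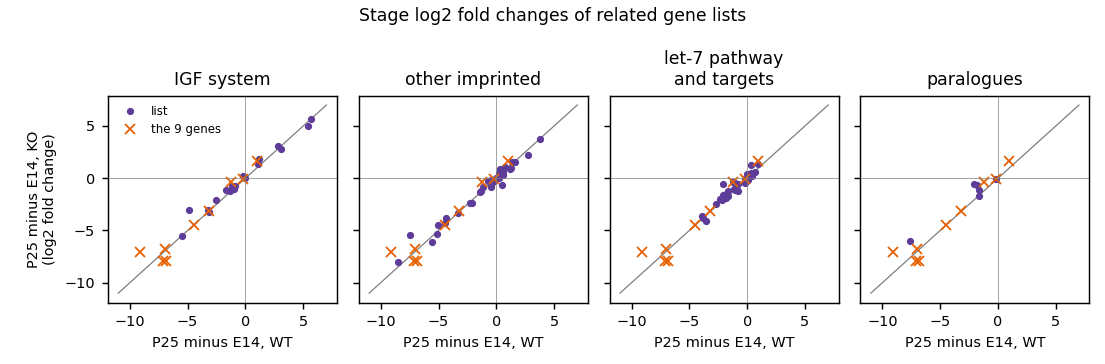
Log2 fold change P25 minus E14 in KO ganglia (vertical axis) against that in WT ganglia (horizontal axis) for the genes of the IGF system, other imprinted genes, the let-7 list and the paralogues (dots), with the 9 genes as crosses and the line of equal values. The IGF system and the imprinted genes lie on both sides of 0, from -5.47 to 5.69 and from -8.50 to 3.78 in WT ganglia.

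The genes with profiles most like each of the 9, by the root mean square difference of centred log2 CPM over the 16 libraries among 13150 candidates, were as follows. Igf2 was nearest to the microfibril gene Mfap2 (0.391), the matrix gene Fbln1 (0.427) and the imprinted cell cycle inhibitor gene Cdkn1c (0.446). For Dlk1 the nearest was the imprinted gene Magel2 (0.314). The closest to Igf2bp1 was the collagen gene Col22a1 (0.666) and to Igf2bp3 the RNA-binding protein gene Mex3a (0.553). Igf2bp2 was followed most closely by Igfbp5 (0.173), itself a gene of the IGF system. Hmga2 was nearest to Plppr1 (0.471) and Lin28b to Ibtk (0.313). Plagl1 was nearest to Prkaa2 (0.260), which encodes a catalytic subunit of AMP-activated kinase, and Peg3 to Dennd4a (0.154) and Ccser2 (0.159). The 16 points share the 2 stages and the depth of each library. Log2 CPM was taken with a prior count of 2, which sets a floor for genes near 0 at P25, so unequal falls can look alike. Magel2, for example, had a WT stage value of -8.50, against -7.00 for Dlk1.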

How the data were processed

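Poly(A)-selected, stranded RNA-seq libraries (TruSeq stranded mRNA, per the labels' protocols) of 16 single trigeminal ganglia were analysed, 4 per group. The deposited files give, for each gene, an estimated count without decimals, made by the authors. Per the submitters' processing notes the tools included kallisto 0.46, DESeq2 1.32.0 and fastp 0.20.0, and the genome build was GRCm39; the annotation and strand setting were not given in the sources used here. Ensembl identifiers were matched to symbols for 25614 of 25719 genes.

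Counts were tested with edgeR 4.0.16 (R 4.3.3): filterByExpr, TMM scaling, 1 quasi-likelihood fit of the 4 groups over all 16 libraries, and Benjamini-Hochberg adjustment over 15109 genes in each of 5 comparisons. CPM values are counts scaled by TMM-adjusted library size. DESeq2 1.42.0 and other scalings, filters and designs served as alternatives. The test was checked on simulated data, with changes placed in genes that averaged at least 1 CPM. By genotype it recovered 8% of 1.5-fold changes at each age. Of 2-fold changes it recovered 62% at E14 and 64% at P25, and of 4-fold changes 96% at E14 and 94% at P25. Approximate intervals are the estimate with a normal quantile times its SE. All 9 genes are named in every comparison, and from each related list the up to 3 called genes with the largest WT stage change each way at 1 CPM or more, except that some items are not reported here. The genes, lists and tests were chosen with earlier results of these data known. H19, Meg3, Rian, Mirg, Kcnq1ot1 and Airn were not analysed here. Sequences come from RefSeq (GRCm38.p6) and GENCODE M21 (GRCm38), as do transcript lengths and gene positions, and no coordinate was converted to GRCm39. The smallest chi-square per gene between replicates was 16.1, so libraries of a group differed by more than counting error, and each was counted as 1 sample. That value cannot show whether the E14 libraries that share a number come from different embryos. Figures were drawn with matplotlib 3.10.9.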

Additional observations from a re-analysis of the deposited data

Results flagged for a closer look

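Of the 36 sets of 4 libraries (9 genes in 4 groups), 2 held a library that stood apart from the other 3 by Dixon's ratio, where chance flags about 1 in 20. Igf2bp3 in E14 WT replicate 2 had 15.7 CPM, the lowest of its group, where the other 3 E14 WT libraries lay between 27.7 and 28.1 CPM. Plagl1 in P25 KO replicate 3 had 16.98 CPM, the lowest of its group, where the other 3 P25 KO libraries lay between 29.6 and 30.4 CPM.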

How the results depend on the processing

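Across 25 settings, 7 to 8 of the 9 genes were called with stage in WT ganglia, 7 in KO ganglia at every setting, and 0 by genotype at either age or, over the settings run, in the stage-by-genotype term. Peg3 in WT ganglia fell short with library totals alone (0.83, adjusted p = 0.0621) and without P25 WT replicate 1 (0.86, adjusted p = 0.0507). The cause was not tested. Values that changed sign were uncalled: for Igf2bp2 the stage-by-genotype term was -0.011 without a filter, -0.0077 with the stricter filter and -0.090 with offsets for GC content and length, which also gave 0.027 for its E14 genotype effect. The sources state no pairing by replicate number, and libraries with the same replicate number in different groups did not deviate together (r from -0.39 to 0.22). The E14 libraries that share a number with the letter R or L lie within a group and were not compared in this way. With the replicate number as a block, Plagl1 had 0.043 in KO ganglia, and 8 genes in WT and 7 in KO ganglia were called.

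Leaving out each library in turn gave ranges across 0 for the following uncalled effects. With stage, Plagl1 ran from -0.30 to 0.52 in KO and from -0.46 to 0.086 in WT ganglia. By genotype at P25, Igf2 ran from -0.32 to 0.42, Igf2bp2 from -0.18 to 0.083 and Plagl1 from -0.013 to 0.28. By genotype at E14, Igf2bp2 ran from -0.23 to 0.15, Igf2bp3 from -0.093 to 0.17, Plagl1 from -0.58 to 0.24 and Peg3 from -0.49 to 0.024. In the stage-by-genotype term, Igf2 ran from -0.46 to 0.27, Dlk1 from -0.059 to 0.58, Igf2bp2 from -0.21 to 0.16 and Plagl1 from -0.13 to 0.69. The stage-by-genotype term could not be fitted with the compared libraries only, since it uses all 16. Depth limits Igf2bp1, Igf2bp3 and Hmga2 at P25, where 3 to 21 counts per group were found. Summing the same-numbered E14 ganglia, which left 3 libraries in each E14 group, changed no count of the 9 genes called by edgeR. The 8 permutation tests of ratios between genes kept their direction but gave p = 0.0571 there, the smallest possible. DESeq2 called 17 genes by genotype at P25 and 6 at E14, where edgeR called 7 and 3, and 8 against 0 in the stage-by-genotype term.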
